A study of Mus musculus with 9 samples.

Results

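The mouse cluster of miR-191 and miR-425 consists of the hairpins mmu-mir-191 and mmu-mir-425, and its small RNAs were followed in B16F1 cells, an established mouse melanoma line from C57BL/6J skin. Small RNA was counted in 9 libraries from independent cultures. Of these, 3 came from cells that were not exposed, 3 had received 5 mM L-Tyr, the amino acid from which melanin is made, and 3 had received the thymidine analog 5-Brd-2′-dU, which is incorporated into DNA, at 2.5 µg/mL. Both exposures lasted 72 h. All 3 groups were grown in the same medium with fetal bovine serum. Every entry of the count table listed under one of the 2 hairpins was taken, with the names of their mature forms, and counts were summed by hairpin and arm. The table has 6414 entries for 391 known hairpins, and the 2 hairpins account for 71 of the entries, of which 67 are sequence tags and 4 are mature names.

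A microRNA gene is transcribed into a long precursor from which Drosha cuts a hairpin, and Dicer then cuts the hairpin into a duplex of 2 arms, 5p and 3p. One strand is loaded into an Argonaute protein and finds its targets mainly with its seed, bases 2 to 8. Hairpins that lie close together on the same strand are often cut from 1 shared transcript, as is known for miR-191 and miR-425, which lie within Dalrd3 as RefSeq places that gene. The comparison of the 2 hairpins asks whether both products of a shared transcript followed the same course under the exposures.

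The hairpins are shown first because every value below is read from them. In the RefSeq sequences of GRCm38.p6, the mature arms are in capitals.

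mmu-mir-191: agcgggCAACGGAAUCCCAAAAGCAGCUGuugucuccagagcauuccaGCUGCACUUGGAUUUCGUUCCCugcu

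mmu-mir-425: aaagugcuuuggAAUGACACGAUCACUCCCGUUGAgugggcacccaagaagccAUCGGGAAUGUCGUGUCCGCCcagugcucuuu

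Each hairpin matched the NCBIM37 genome (mm9) exactly once. mmu-mir-191 lies at chr9:108470650-108470723 and mmu-mir-425 at chr9:108471108-108471192, both on the plus strand and 384 bases apart. In GENCODE M1, the annotation of that build, Dalrd3 begins 1030 bases downstream of mmu-mir-425, so that both hairpins lie outside the gene. In RefSeq on GRCm38.p6, Dalrd3 runs from 108567484 to 108572773 on chromosome 9 and contains both hairpins, Mir191 at 108568319 to 108568392 and Mir425 at 108568777 to 108568861. A RefSeq start of Dalrd3 is also listed at 108569892 on the plus strand, downstream of both hairpins. GENCODE M1 also lists a miRNA gene on the opposite strand, CT010508.1, across mmu-mir-191 (108470626 to 108470745).

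The 4 mature sequences from RefSeq are given with the seed in capitals, since the seed is what the start of a tag moves.

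mmu-miR-191-5p: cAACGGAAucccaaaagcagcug

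mmu-miR-191-3p: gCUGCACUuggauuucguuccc

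mmu-miR-425-5p: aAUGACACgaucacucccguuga

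mmu-miR-425-3p: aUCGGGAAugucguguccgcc

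The 4 seeds differ from each other, so the cluster holds no repeated family member. Among 1679 RefSeq mature names, only mmu-miR-489-3p shares a seed with a member (miR-425-5p), and it had 0 counts in these libraries.

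Of the 26600 counts of the cluster, 93.5% lay under mmu-mir-191 and 6.47% under mmu-mir-425. The 5p arm of mmu-mir-191 held 39 tags with 24709 counts, and its 3p arm held 4 tags with 171 counts. The arms of mmu-mir-425 were closer to each other, with 829 counts in 11 tags of the 5p arm and 889 counts in 13 tags of the 3p arm. Of the 4 mature names, only that of miR-425-3p had counts, 2 in all, which were added to its sum. No member tag was listed under a second hairpin. Tags that occur exactly in the RefSeq hairpin held 97.3% of the counts of miR-191-5p, 98.3% of miR-425-5p and 90.3% of the tag counts of miR-425-3p.

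The deposited totals ran from 144452 to 424122 counts per library, so that a count of 0, which allows up to 3 counts, limits a level to between 6.73 and 20.1 CPM (counts in 1000000 of the library total, scaled by edgeR's TMM factors). Intervals and limits given here cover counting error only, because PCR reads without molecular identifiers are not independent molecules. miR-211, a marker of pigment cells, was above 0 in every library, between 6928 and 26830 CPM. Replicate 3 of 5-Brd-2′-dU stood apart: its summed stromal markers (6 listed) reached 273868 CPM, against 1910 to 7583 CPM in the other 8 libraries. Of this sum, miR-143 alone had 268338 CPM. In the same library the summed erythroid markers (3 listed) reached 7363 CPM against at most 402.6 CPM elsewhere. The summed leukocyte markers (4 listed) reached 1529 CPM there, against at most 70.4 CPM. These sums do not show which of the listed markers were high in that library. The endothelial marker miR-126a had 7385 CPM there against at most 270 CPM elsewhere. The neural markers, the 3 hairpins of miR-124, were at 0 in all libraries. The part of these markers in the results below was not tested, and the fitted changes of the arms under 5-Brd-2′-dU are also given without that library.

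miR-191-5p was the abundant product of the cluster, and its level was higher in all 6 exposed libraries than in all 3 control libraries. In control cells it had 6633, 7618 and 7598 CPM, from 1403, 3397 and 1726 counts. With L-Tyr it had 10668, 9768 and 11092 CPM, from 1590, 2499 and 2147 counts. With 5-Brd-2′-dU it had 11615, 12913 and 15231 CPM, from 2013, 5739 and 4195 counts. With this scaling the groups did not overlap, and the order from low to high was control, then L-Tyr, then 5-Brd-2′-dU. The gap between the exposures was narrow, 11092 against 11615 CPM, and with scaling by total count the exposures overlapped. The share of all arms that separate between the exposures was not computed. The means were 7283 ± 563, 10509 ± 676 and 13253 ± 1832 CPM (SD, n = 3 each). Among 298 arms that passed the filter on low counts over the 9 libraries, miR-191-5p ranked 34 by mean CPM in control cells, 28 with L-Tyr and 22 with 5-Brd-2′-dU.

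**Figure D1:**
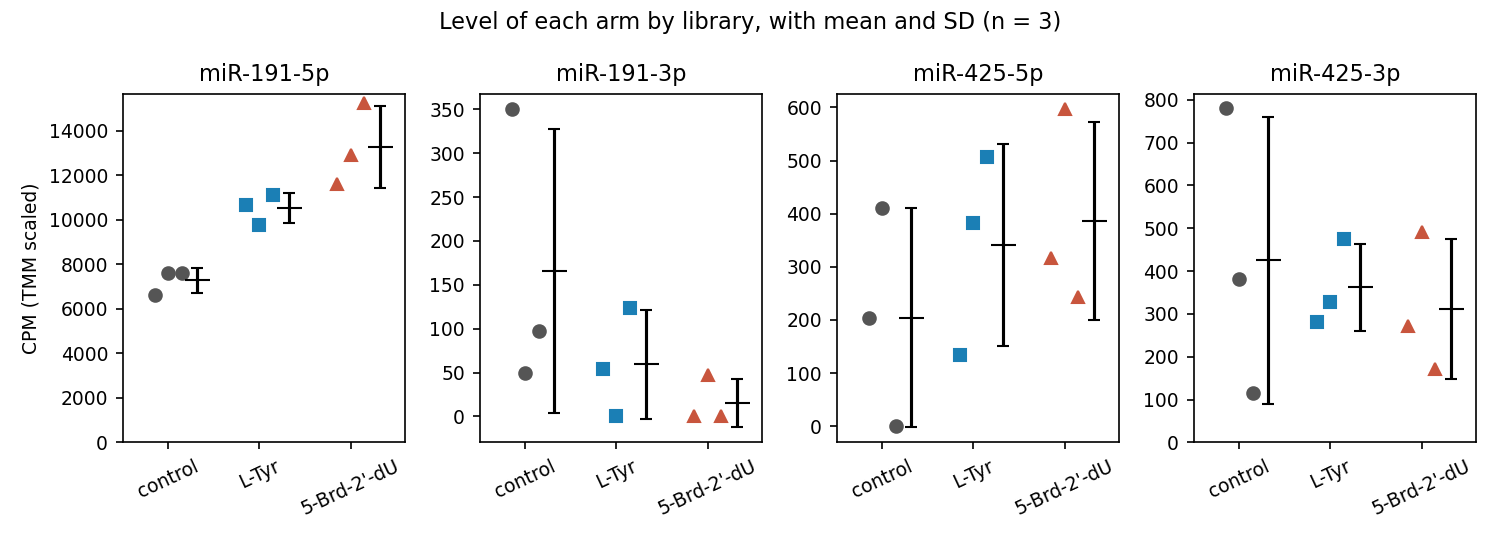
Level of each arm in CPM (vertical axis, TMM scaled, a separate linear scale for each panel) in the 3 libraries of each group, with the group mean and SD in black. The points of miR-191-5p form 3 groups that do not overlap (6633 to 7618, 9768 to 11092 and 11615 to 15231 CPM), while those of the other arms overlap between control cells and L-Tyr.

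The size of the difference was tested with edgeR's quasi-likelihood test on the 6 libraries of each comparison, with Benjamini-Hochberg adjustment over all arms tested. The 3 control libraries serve in both comparisons with control, which are therefore not independent. For L-Tyr relative to control, the log2 fold change of miR-191-5p was 0.49 (SE 0.18, unadjusted p = 0.0217, adjusted p = 0.217), which did not pass the threshold of 0.05. For 5-Brd-2′-dU relative to control, it was 0.82 (SE 0.19, unadjusted p = 0.00271, adjusted p = 0.0591), which also did not pass. Between the 2 exposures it was 0.41 (SE 0.21, adjusted p = 0.475), with 5-Brd-2′-dU higher, and without replicate 3 of 5-Brd-2′-dU it was 0.25 (SE 0.2, adjusted p = 0.838). An exact permutation test of the CPM of miR-191-5p gave the smallest two-sided p that 3 libraries against 3 allow, 0.1, in each comparison.

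None of the 4 arms passed in any of the 3 comparisons. Over all arms, 2.32% of 259 passed for L-Tyr relative to control, 3.18% of 283 for 5-Brd-2′-dU relative to control and 2.38% of 252 between the exposures. The arms with an unadjusted p under 0.05 and a higher level made up 7.72% of those tested with L-Tyr and 11.7% of those tested with 5-Brd-2′-dU, and miR-191-5p was the only member among them in both. All 3 exposed libraries lay above all 3 control libraries for 10% of the arms with L-Tyr and 14.8% with 5-Brd-2′-dU. All 6 exposed libraries lay above all 3 control libraries for 4.36% of 298 arms, miR-191-5p among them.

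For 5-Brd-2′-dU relative to control, the call of miR-191-5p depended on the procedure, while its size varied little. The log2 fold change lay between 0.78 and 0.98 in 15 alternatives, and the adjusted p lay between 0.023 and 0.243. It passed in 4 of them: with no filter on low counts (0.87, adjusted p = 0.0406), with a mean count of at least 50 (0.83, adjusted p = 0.0282), with all 9 libraries in 1 edgeR fit (0.86, adjusted p = 0.023) and with DESeq2's Wald test (0.85, adjusted p = 0.0244). Without replicate 3 of 5-Brd-2′-dU it was 0.78 (SE 0.22, adjusted p = 0.117). When libraries were scaled by their total counts, miR-191-5p in both exposures still lay above control (6543 to 8009 CPM in control cells, 10489 to 12309 with L-Tyr, 11001 to 14926 with 5-Brd-2′-dU), but the exposures then overlapped each other.

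The libraries of a group differed little in miR-191-5p. Its pooled SD of log2 CPM within groups was 0.142, and only 1 of 183 arms with a mean count of at least 50 had a smaller one, where the median arm had 0.507. For miR-425-5p the same SD was 1.91, with 162 arms below it, and for miR-425-3p it was 0.921, with 136 arms below it. The products of the 2 hairpins thus differed in spread as well as in level, and their mean counts were 2745, 92.1 and 99 per library.

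miR-425-5p varied more between libraries of a group than between groups. It had 203.3, 410.4 and 0 CPM in control cells, from 43, 183 and 0 counts. With L-Tyr it had 134.2, 383.1 and 506.3 CPM, from 20, 98 and 98 counts, and with 5-Brd-2′-dU it had 317.4, 596.3 and 243.3 CPM, from 55, 265 and 67 counts. The 3 groups overlapped. The 0 of control replicate 3 allows up to 13.2 CPM in that library. Relative to control, L-Tyr gave a log2 fold change of 0.71 (SE 1.32, adjusted p = 0.912). The value of 5-Brd-2′-dU was 0.89 (SE 1.31, adjusted p = 0.807). Without control replicate 3 these values were 0.07 and 0.27, and without control replicate 2 they were 1.68 and 1.89, so that they depend on single control libraries. Without replicate 3 of 5-Brd-2′-dU the second value was 1.16. An interval of 2 SE around the value for 5-Brd-2′-dU runs from -1.73 to 3.52 and includes both no change and the change of miR-191-5p.

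miR-425-3p had slightly more counts than miR-425-5p. It had 780.1, 381.2 and 114.5 CPM in control cells, 281.8, 328.3 and 475.3 CPM with L-Tyr and 271.2, 490.5 and 170.6 CPM with 5-Brd-2′-dU. All exposed values fell inside the range of the control libraries. Relative to control, L-Tyr gave a log2 fold change of -0.26 (SE 0.74, adjusted p = 0.939). The value of 5-Brd-2′-dU was -0.48 (SE 0.78, adjusted p = 0.836). Without control replicate 1 these values were 0.45 and 0.34, with the sign turned in both. Without replicate 3 of 5-Brd-2′-dU the second value was -0.14.

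miR-191-3p, the strand opposite miR-191-5p, was near the limit of detection. It had 74, 22 and 22 counts in control cells, 8, 0 and 24 with L-Tyr and 0, 21 and 0 with 5-Brd-2′-dU. The 3 libraries at 0 allow up to 11.7, 17.3 and 10.9 CPM. The 3 controls, at 349.9, 49.3 and 96.8 CPM, lay above the 3 libraries of 5-Brd-2′-dU, of which the highest had 47.2 CPM. With scaling by total count these groups overlapped, the lowest control at 51.9 CPM and the highest library of 5-Brd-2′-dU at 54.6 CPM. The share of all arms in which the controls lay above 5-Brd-2′-dU without overlap was not computed. The fitted log2 fold change of 5-Brd-2′-dU relative to control was -3.28 (SE 1.74, adjusted p = 0.36). It ran from -8.47 without replicate 2 of 5-Brd-2′-dU to -2.07 without control replicate 1, and it was -2.68 without replicate 3 of 5-Brd-2′-dU.

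**Figure D2:**
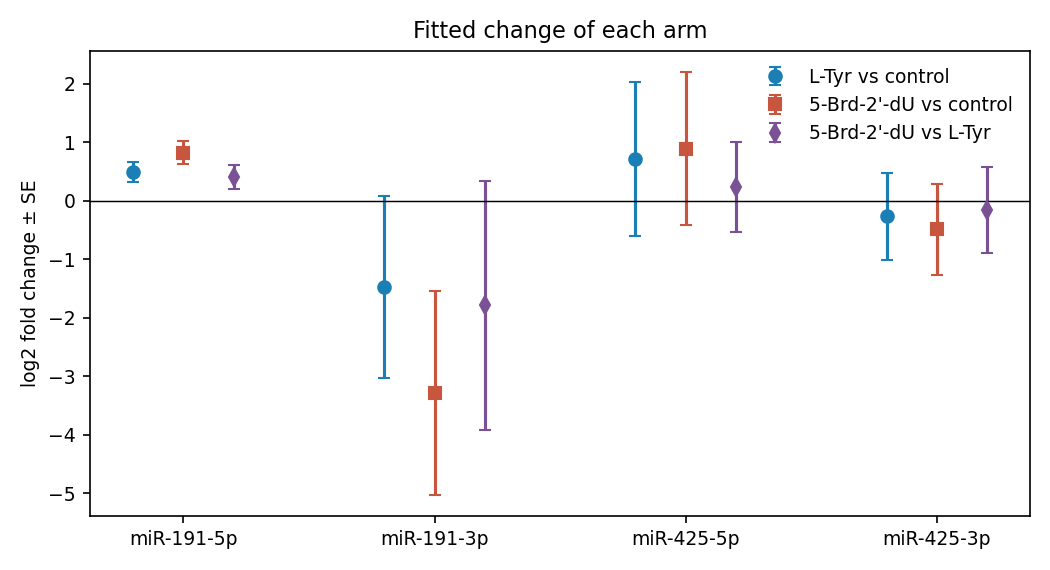
Log2 fold change of each arm (vertical axis, edgeR, bars of 1 SE) in the 3 comparisons, which share libraries. The bars of miR-191-5p are short (SE 0.18 to 0.21) and its values lie above 0, whereas those of miR-425-5p and miR-425-3p cross 0 in every comparison.

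The tags of miR-191-5p began at 6 neighbouring positions, so that most of them do not carry the annotated seed. The most abundant tag at each position is printed, from the annotated start to 5 bases downstream of it, with its own bases 2 to 8 in capitals to show how the seed would move.

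start 0: cAACGGAAtcccaaaagcag

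start 1: aACGGAATcccaaaagcagc

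start 2: aCGGAATCccaaaagcagct

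start 3: cGGAATCCcaaaagcagctg

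start 4: gGAATCCCaaaagcagctg

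start 5: gAATCCCAaaagcagctg

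Over all libraries, 14.8% of the miR-191-5p counts began at the annotated start, 6.4% began 1 base downstream, 18.2% began 2, 26.8% began 3, 19.8% began 4 and 14% began 5 bases downstream. Tags in the table are at most 20 nt long, so that no tag can hold all 23 nt of the annotated miR-191-5p. Tags of 20 nt held 52.3% of its counts, and the shortest tag had 15 nt. For a tag of 20 nt, the far end of the molecule may not be seen. Starts downstream of the annotation were common in the table: of 133 arms with a RefSeq mature start and a mean count of at least 50, 73 had their main start downstream. The share of counts at the annotated start had a median of 24.3% over these arms, and 50 of them had a lower share than miR-191-5p. The origin of the shifted starts was not tested.

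**Figure D3:**
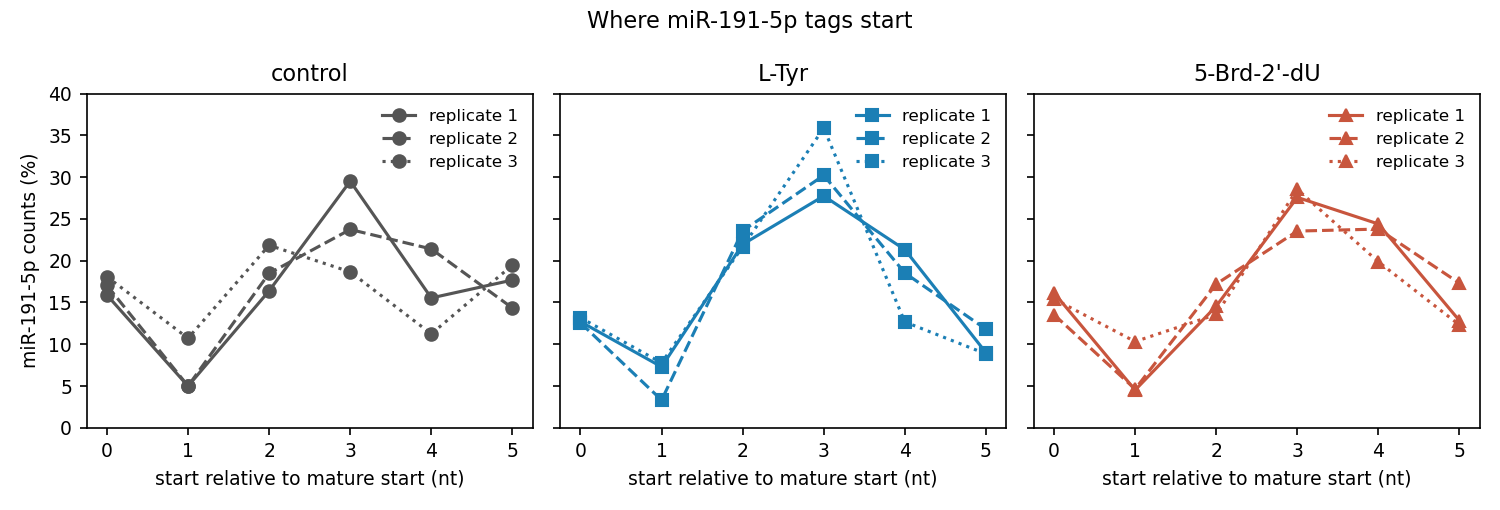
Percent of the miR-191-5p counts (vertical axis) that began at each distance in nt from the annotated mature start (horizontal axis), 1 line per library, 1 panel per group. In all 9 libraries the counts spread over all 6 starts, and the mean share at 3 bases downstream was 24% in control cells, 31.3% with L-Tyr and 26.6% with 5-Brd-2′-dU.

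The make-up of miR-191-5p by start was compared between the groups, and no difference passed the test. The annotated start took 17% ± 1.09 of the counts in control cells, 12.8% ± 0.323 with L-Tyr and 15% ± 1.35 with 5-Brd-2′-dU (SD, n = 3). The libraries exposed to L-Tyr lay below the control libraries without overlap, as they did for the start 5 bases downstream (9.88% ± 1.67 against 17.2% ± 2.6). Between the exposures, the libraries did not overlap at the annotated start, at the start 2 bases downstream (22.4% ± 1.03 with L-Tyr, 15.1% ± 1.88 with 5-Brd-2′-dU) or at the start 5 bases downstream (14.1% ± 2.75 with 5-Brd-2′-dU). For each of these 5 comparisons the exact permutation p was 0.1, the smallest that the design allows, and the adjusted p over the 18 comparisons of starts was 0.277. The shares of the starts depend on each other, and how often the starts of other arms separate was not computed. The main start, 3 bases downstream, overlapped between the groups in all 3 comparisons.

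At the level of single tags, none of the abundant forms of miR-191-5p passed the test with the main settings. The most abundant tag, at start 2, had 898.3, 1301 and 893.6 CPM in control cells, 2268, 2107 and 2180 CPM with L-Tyr, and 1356, 1994 and 2022 CPM with 5-Brd-2′-dU. Its log2 fold change relative to control was 0.98 (SE 0.29, adjusted p = 0.275) with L-Tyr and 0.79 (SE 0.35, adjusted p = 0.463) with 5-Brd-2′-dU, in an edgeR fit over all tags. The 20 nt tag at the annotated start had -0.19 (SE 0.34, adjusted p = 0.937) with L-Tyr and 0.77 (SE 0.32, adjusted p = 0.392) with 5-Brd-2′-dU. The 20 nt tag at start 3 had 0.89 (SE 0.33, adjusted p = 0.422) and 1.17 (SE 0.33, adjusted p = 0.169). Among the printed tags, the 19 nt tag at start 4 differed most from control. Under 5-Brd-2′-dU its log2 fold change reached 2.22, with an SE of 0.52 and an adjusted p of 0.127. This tag passed in 2 of 14 alternative fits of that comparison, where the adjusted p ran from 0.00942 to 0.536. Under L-Tyr its change was 1.09, with an SE of 0.72 and an adjusted p of 0.779. The next most abundant tags at start 4 differed from it under 5-Brd-2′-dU. The tag of 18 nt had 1.44 (SE 0.47, adjusted p = 0.257) and a tag of 20 nt had 0.18 (SE 0.63, adjusted p = 0.954). The differences between these tags were not tested.

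Of the 39 tags of miR-191-5p, 19 passed the filter on low counts for L-Tyr relative to control and 20 for 5-Brd-2′-dU relative to control. None of them passed the adjusted threshold in either comparison, where 0.0796% of 1256 tags and 0 (0%) of 1488 tags passed. An unadjusted p under 0.05 with a higher level was found for 2 of the 19 (10.5%) against 4.54% of all tags with L-Tyr, and for 5 of the 20 (25%) against 6.92% of all tags with 5-Brd-2′-dU. The tags of miR-191-5p are overlapping forms of the same arm in the same libraries, so these shares do not count separate observations. For the 1488 tags of 5-Brd-2′-dU relative to control, 156 had an unadjusted p under 0.05 in either direction, and DESeq2's Wald test called 43 tags.

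The few counts of mmu-mir-425 began mostly downstream of the annotation as well. The most abundant tag of each arm is printed with its bases 2 to 8 in capitals.

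miR-425-5p: tGACACGAtcactcccgttg

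miR-425-3p: cGGGAATGtcgtgtccgccc

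In miR-425-5p, 36.8% of the counts began 2 bases downstream and 36.8% began 3 bases downstream, against 14.1% at the annotated start. In miR-425-3p, 48% began 2 bases downstream and 18.2% at the annotated start. The starts of these arms changed from library to library of a group: 98 of 98 counts of miR-425-5p began 2 bases downstream in L-Tyr replicate 3 and 19 of 98 in L-Tyr replicate 2. No tag of miR-425-5p or miR-425-3p was counted in all 9 libraries, whereas 13 tags of miR-191-5p were.

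The 2 hairpins also differed in the use of their arms. The 5p arm held 97.7% ± 2.36 of the counts of mmu-mir-191 in control cells, 99.5% ± 0.554 with L-Tyr and 99.9% ± 0.211 with 5-Brd-2′-dU. For mmu-mir-425, it held 20.7%, 51.8% and 0% in the control libraries, with 95% Wilson intervals of 15.7% to 26.7%, 46.6% to 57% and 0% to 12.9%. With L-Tyr it held 32.3%, 53.8% and 51.6%, and with 5-Brd-2′-dU 53.9%, 54.9% and 58.8%. In this 5p share of mmu-mir-425, the libraries of 5-Brd-2′-dU lay above those of the other groups. The exact permutation p was 0.1 against each, with an adjusted p of 0.429 over 15 comparisons of ratios and shares. Against L-Tyr the nearest libraries were almost equal, at 53.92% and 53.85%. Their 95% Wilson intervals were 44.3% to 63.3% with 5-Brd-2′-dU and 46.6% to 60.9% with L-Tyr. The control value of 0% rests on 26 counts. How often the 5p share of other hairpins separates in this way was not computed.

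The ratio of the 2 hairpins did not separate the groups. miR-191-5p had 32.6 and 18.6 times as many counts as miR-425-5p in control replicates 1 and 2, and at least 575 times as many in replicate 3, where miR-425-5p is set to the limit of 3 counts. The ratio was 79.5, 25.5 and 21.9 with L-Tyr and 36.6, 21.7 and 62.6 with 5-Brd-2′-dU. As a mean log2 ratio (0.5 added to each count) it was 6.99 ± 4.14, 5.13 ± 1 and 5.19 ± 0.762, and relative to control the exact permutation p was 0.7 with L-Tyr and 0.9 with 5-Brd-2′-dU. Over both arms, mmu-mir-425 held 12.3%, 9.36% and 1.47% of the cluster's counts in control cells, 3.73%, 6.79% and 8.05% with L-Tyr and 4.82%, 7.74% and 2.65% with 5-Brd-2′-dU. The differences between libraries of 1 group exceeded their counting intervals, as in the control libraries (10.9% to 14% in replicate 1 against 1% to 2.14% in replicate 3).

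**Figure D4:**
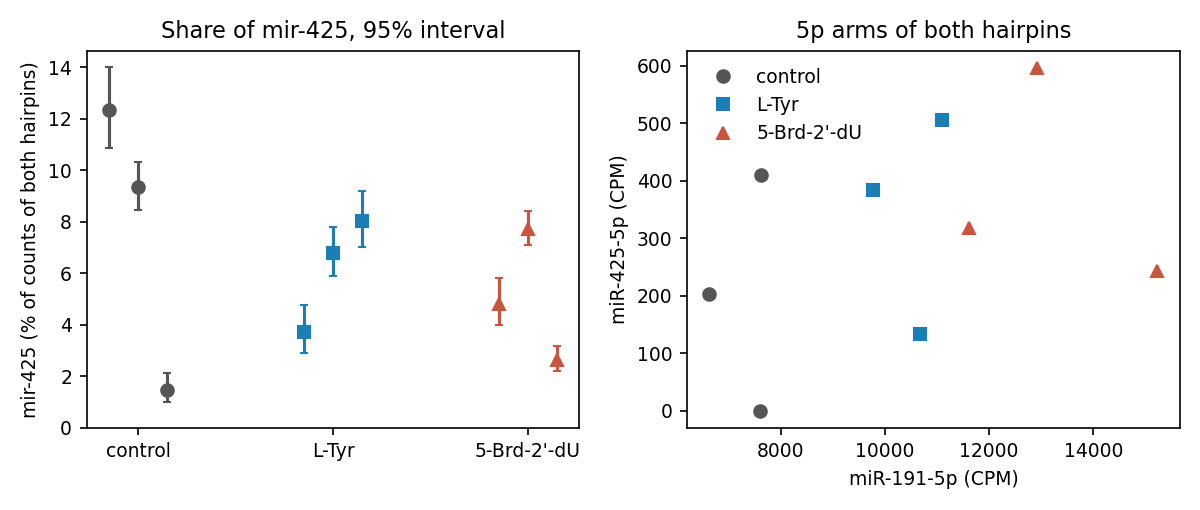
Left, percent of the counts of both hairpins that fell under mmu-mir-425 in each library, with 95% Wilson intervals. Right, miR-425-5p against miR-191-5p in CPM, 1 point per library: the groups separate along the horizontal axis but not along the vertical one, where the lowest point is a control library at 0.

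Across the 9 libraries, log2 CPM of miR-191-5p and miR-425-5p had Pearson's r = 0.407 (exact permutation p = 0.306) and Spearman's rho = 0.433 (exact permutation p = 0.25). Over the 3 relations computed among the arms, the adjusted p were 0.458 and 0.375. Because miR-191-5p separates the groups, the relation within groups was also computed, from deviations from the group means, and r was then -0.213 (exact permutation p = 0.667). Without the 2 libraries farthest from the median of miR-191-5p, r was 0.589 over 7 libraries (exact permutation p = 0.147). With scaling by total count r was 0.659 (exact permutation p = 0.0363). miR-191-5p and miR-425-3p had r = -0.226 (exact permutation p = 0.561) and rho = -0.183 (exact permutation p = 0.644). For this pair the sign turned with scaling by total count (r = 0.211, exact permutation p = 0.586) and without the 2 libraries farthest from the median of miR-191-5p (r = 0.578 over 7 libraries, exact permutation p = 0.175). The 2 arms of mmu-mir-425 had r = 0.683 (exact permutation p = 0.044, adjusted p = 0.132) and rho = 0.567 (exact permutation p = 0.121), and without the 2 libraries farthest from the median of miR-425-5p, r was 0.124, so that this relation over all libraries rests on them. Within groups, from deviations from the group means, these arms had r = 0.832 (exact permutation p = 0.0602) and rho = 0.85 (exact permutation p = 0.0185).

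Other arms followed miR-191-5p more closely than its partner did. Among 182 other arms with a mean count of at least 50, miR-425-5p ranked 61 and miR-425-3p ranked 119 by r with miR-191-5p. The 5 most alike were a predicted hairpin listed with the name of mir-22 (r = 0.918), miR-99b-5p (0.872), miR-6236-3p (0.865), miR-22-3p (0.863) and miR-181a-2-3p (0.842). For miR-99b-5p the mean levels were 32155 CPM in control cells, 52156 with L-Tyr and 69414 with 5-Brd-2′-dU. The arms most like miR-425-5p were miR-30c-1-5p (r = 0.773), miR-15b-3p (0.726), miR-30c-2-5p (0.719), miR-425-3p (0.683) and miR-322-3p (0.679), with miR-191-5p at rank 19. These r values describe 9 libraries that share their scaling and groups. miR-30c-1-5p and miR-30c-2-5p had nearly equal mean counts, 137.3 and 137 per library, and the predicted hairpin shares its name with miR-22-3p. In each list such arms may be the same product, which was not tested.

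Other hairpins known to be cotranscribed gave a scale for the spread of the ratio. Of 17 listed pairs, 14 had an arm with a mean count of at least 50 on both sides. Some partners, such as miR-24-1 and miR-30c-1, are numbered copies, and whether other copies add to their counts was not tested. With the arm of more counts taken for each hairpin, the log2 ratio of miR-191-5p to miR-425-3p had an SD of 0.99 over the 9 libraries, and 11 of the 14 pairs had a smaller one. Without replicate 3 of 5-Brd-2′-dU its SD was 0.871, and 11 of the 14 pairs again had a smaller one. The SD of the other pairs ran from 0.287 for miR-27b and miR-24-1 to 2.4 for miR-143 and miR-145a, with a median of 0.758. Without replicate 3 of 5-Brd-2′-dU the SD of miR-143 and miR-145a was 2.55. The pairs with the largest SDs had a partner of few counts, as this cluster does with the 99 counts per library of miR-425-3p: miR-145a averaged 73.3 counts, miR-365-1 87.2 (SD 2.18), miR-30c-1 137 (SD 1) and miR-182 75 (SD 0.836). The pairs next in SD were close to miR-182 but had partners of more counts: 0.831 for miR-322 and miR-503 (202.2 counts) and 0.814 for miR-30b and miR-30d (929.3 counts). The part of low counts in the SD was not tested. The r between partners ran from -0.378 to 0.905 with a median of 0.341 in these pairs. Of the 25 arms in the list, 1 passed as higher for L-Tyr relative to control (miR-30d-5p, which had an edgeR log2 fold change of 0.97 at an adjusted p of 0.0101) and 0 passed for 5-Brd-2′-dU relative to control by edgeR. The median log2 fold change of the 25 arms was -0.10 with L-Tyr and 0.38 with 5-Brd-2′-dU, beside -0.10 and -0.09 over all arms tested.

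**Figure D5:**
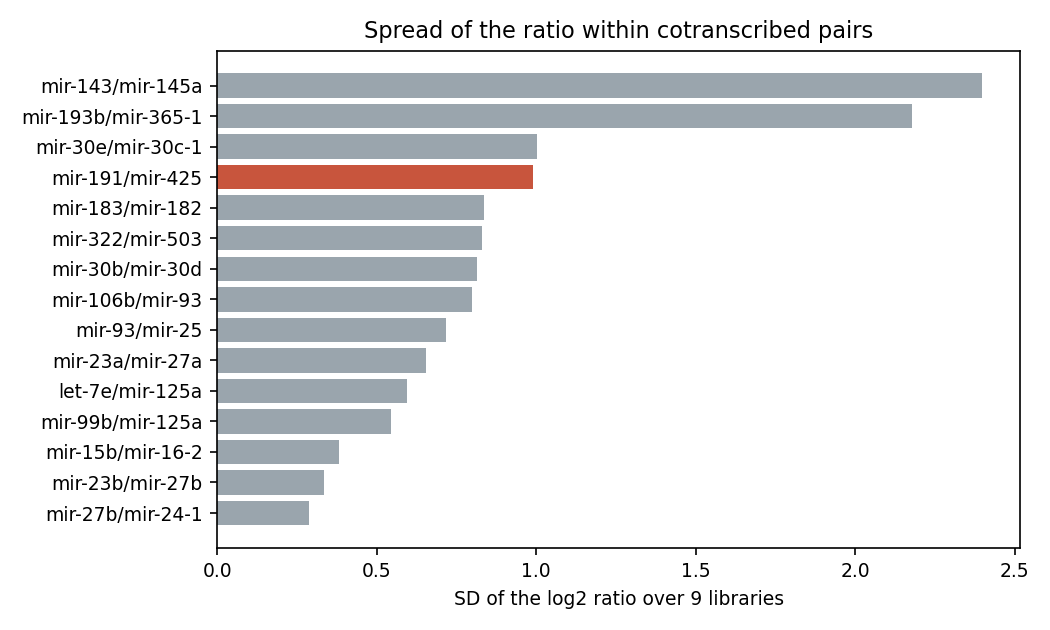
SD over the 9 libraries of the log2 ratio of counts within each cotranscribed pair (horizontal axis), with the pair of mmu-mir-191 and mmu-mir-425 in red. Its bar (0.99) is longer than those of 11 of the 14 other pairs, and the 3 longer bars are of pairs with a partner that averaged 73.3, 87.2 and 137 counts.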

How the data were processed

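Per the labels and the methods of the study, TruSeq small RNA libraries were sequenced in single reads and processed with the BaseSpace Small RNA app against mm9 and miRBase. The submitters' processing notes also name FastQC, MultiQC, DESeq and DESeq2. The authors deposited raw counts per tag, which were used here. Their normalized counts and DESeq2 comparison tables (fold changes and p-values) were not used.

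Counts were summed by hairpin and arm (start number under 35 as 5p). The tests used R 4.3.3, edgeR 4.0.16 (TMM, filterByExpr, quasi-likelihood, Benjamini-Hochberg) and, as an alternative, DESeq2 1.42.0, with Python 3.11.15 and scipy 1.17.1 for shares and exact permutation tests. SE is the log2 fold change divided by the square root of F. The edgeR step was tested on simulated data. For correlations, a prior count of 2 was added before log2 CPM. Named were both arms of each hairpin, their main tags and starts, arms sharing a seed, the 5 most alike arms and listed cotranscribed pairs. Members and lists were chosen with earlier results of these data known. Replicates were independent cultures, and no replicate pair agreed within sampling noise.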

Additional observations from a re-analysis of the deposited data

How the results depend on the processing

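The 49 results were recomputed under 562 alternatives, of which 485 kept the direction and the side of the threshold (for counts of calls, within 1.5 times). The replicate numbers of the titles did not pair the libraries: the correlation of same-numbered deviations lay between -0.109 and 0.039 and 0 of 9 exceeded 0.1, and samples correlated best with their own number in 2 of 18 cases. With the replicate block, miR-191-5p kept its direction and had a log2 fold change of 0.82 for 5-Brd-2′-dU (adjusted p = 0.155) and 0.49 for L-Tyr (adjusted p = 0.252), and miR-425-3p had 0.025 for L-Tyr relative to control. The block left 6, 1 and 0 arms called (6, 9 and 6 without it, in the order L-Tyr relative to control, 5-Brd-2′-dU relative to control, then between the exposures) and 0, 1 and 3 tags (1, 0 and 2 without it). The causes of these changes were not tested.

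In the same order, DESeq2's Wald test called 19, 28 and 16 arms and 49, 43 and 40 tags, and no filter on low counts gave 14, 50 and 30 arms and 11, 85 and 47 tags. Scaling by total count gave 3 arms for 5-Brd-2′-dU relative to control and 6 tags for L-Tyr relative to control. The fit of all 9 libraries gave 3 arms and 1 tag between the exposures, and 3 tags when 5-Brd-2′-dU was compared with control. For L-Tyr relative to control, a mean count of at least 50 gave 8 tags, and leaving out the most abundant entry gave 0. Leaving out 1 library gave 0 to 10, 1 to 15 and 0 to 5 called arms, and 1 to 2, 0 to 14 and 0 to 3 called tags. miR-191-5p passed for 5-Brd-2′-dU relative to control with DESeq2's Wald test (0.85), all 9 libraries (0.86), a mean count of at least 50 (0.83) and no filter (0.87).

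The direction, the call or the size changed for the following values. Between the 2 exposures, miR-425-5p had -0.071 when summed by hairpin, its most abundant tag had -0.00067 with DESeq2's size factors and -0.15 with total counts, and the difference in the log2 ratio was -1.42 from the most abundant tags. The difference in that ratio for 5-Brd-2′-dU relative to control was 0.31 over both arms, an alternative chosen after seeing the data, as was a floor of 3 counts for miR-425-5p. The correlation of miR-191-5p and miR-425-5p was 0.66 with total counts and -0.21 within groups, and that of miR-191-5p and miR-425-3p was 0.21 with total counts and 0.58 without the 2 farthest libraries (alternatives chosen after seeing the data). Without 1 library, in the order above, the log2 fold change of miR-425-3p ran from -0.76 to 0.45, from -0.95 to 0.34 and from -0.64 to 0.093, miR-425-5p relative to control from 0.07 to 1.68 and from 0.27 to 1.89, and the ratio's difference from -3.25 to 0.52, from -3.19 to 0.58 and from -0.32 to 0.64. Between the exposures, miR-425-5p ran from -0.22 to 0.64, and the most abundant tags of miR-191-5p from -0.34 to 0.017, of miR-425-5p from -0.54 to 2.52 and of miR-425-3p from -1.23 to 0.00042. The share at the main start ran from -0.069 to 5.36 percentage points for miR-191-5p (5-Brd-2′-dU relative to control) and from -0.287 to 45.8 for miR-425-5p (between the exposures). The arms of mmu-mir-425 averaged 92.1 and 99 counts per library and had SEs of 0.73 to 1.32, beside changes of at most 0.82 in miR-191-5p.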
